A study of Homo sapiens with 8 samples.

Results

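The E-protein genes TCF3, TCF4 and TCF12 and the ID genes ID1, ID2, ID3 and ID4 were examined for peaks of H3K27ac, the acetylated lysine of histone H3 found at promoters and enhancers in use. The cells were MDA-MB-231, a long-used human line from a triple-negative breast tumour, either as control or with ARID1A knocked out. ARID1A is a subunit of the BAF (SWI/SNF) chromatin remodelling complex. The data were 2 deposited peak lists, 1 per genotype, from a study of 8 libraries (2 input and 2 immunoprecipitated libraries for each genotype). Which libraries entered a list is not given: all peak names begin with A-1 in the control list and B-2 in the knockout list, so a list may rest on 1 replicate or on both. No treatment was named, and the sources used here do not say if knockout cells were 1 clone or several. The mark is named after the titles and the antibody label, although the extraction text names an antibody to H3K4me3. With 1 list per genotype there was no spread between replicates and no test of the genotype, so every count is a description of these lists.

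A peak was given to a gene if it lay in the RefSeq gene span or within 100 kb of either end. This took in 41 of 39797 control peaks and 68 of 42552 knockout peaks. The gene was also the closest protein-coding gene for 16 of these 41 control and 35 of these 68 knockout peaks, so many belong to neighbours. A peak was shared if it overlapped a peak of the other list by at least 1 bp, and otherwise control-only or knockout-only. The 7 genes were chosen by their family and by an earlier reading of the same peak classes, in which TCF4 stood out for its knockout-only peaks, so its count is what selected it. Pileup is the authors' fragment coverage of a peak. The control list had a median pileup of 22.7 and the knockout list one of 32.0. The scaling of pileup between lists is not given, so values are set side by side and no ratio between lists is drawn. As a check of the line, all 7 mesenchymal or basal-like marker genes, such as VIM and CD44, had a peak within 1 kb of a start in both lists. So did 4 of 7 luminal or epithelial markers, namely ESR1, GATA3, FOXA1 and KRT8, while PGR, CDH1 and EPCAM had none. ESR1, which encodes the oestrogen receptor, GATA3 and FOXA1 are luminal genes not typical of a triple-negative line, and expression was not analysed here. Of 4 markers of other tissues, 0 had one.

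E-proteins are basic helix-loop-helix (bHLH) transcription factors that bind the E-box, a short palindromic DNA motif, as homodimers or together with tissue-specific bHLH partners. ID proteins carry the helix-loop-helix but lack the basic, DNA-binding stretch, so they pair with E-proteins and hold them off DNA. ID genes are known targets of BMP and SMAD signalling, and E-proteins are known to repress the E-cadherin gene. TCF4 here is the E-protein also called E2-2 or ITF2, and not TCF7L2, the Wnt pathway factor that shares the old name.

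The stretches of 250 bases before 4 of the 10 RefSeq starts of TCF4 and before the single listed start of each ID gene are printed because the peaks below fall differently on them. They are RefSeq sequences on GRCh38.p14 (hg38), 5′ to 3′ in the direction of the gene, and capitals mark an E-box (CANNTG, the same on both strands).
TCF4 start 125 kb into the gene, under the widest knockout-only peak, chr18:55510773-55511022, minus strand: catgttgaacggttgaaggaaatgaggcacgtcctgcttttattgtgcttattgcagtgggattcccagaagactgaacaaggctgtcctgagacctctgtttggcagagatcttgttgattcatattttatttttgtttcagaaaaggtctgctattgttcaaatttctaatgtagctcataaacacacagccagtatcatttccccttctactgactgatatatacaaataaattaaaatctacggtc
TCF4 start 214 kb into the gene, under a knockout-only peak, chr18:55422298-55422547, minus strand: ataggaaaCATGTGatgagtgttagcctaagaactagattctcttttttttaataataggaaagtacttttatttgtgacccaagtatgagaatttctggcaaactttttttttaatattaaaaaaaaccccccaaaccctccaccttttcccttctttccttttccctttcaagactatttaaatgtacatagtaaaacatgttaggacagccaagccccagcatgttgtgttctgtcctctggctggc
TCF4 start 234 kb into the gene, under a knockout-only peak, chr18:55401689-55401938, minus strand: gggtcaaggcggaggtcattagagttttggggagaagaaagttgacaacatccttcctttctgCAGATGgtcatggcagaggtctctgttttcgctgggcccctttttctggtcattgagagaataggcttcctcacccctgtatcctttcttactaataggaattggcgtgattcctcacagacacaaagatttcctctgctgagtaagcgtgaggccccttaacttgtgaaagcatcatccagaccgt
TCF4 start 47.8 kb into the gene, with no peak in either list, chr18:55588193-55588442, minus strand: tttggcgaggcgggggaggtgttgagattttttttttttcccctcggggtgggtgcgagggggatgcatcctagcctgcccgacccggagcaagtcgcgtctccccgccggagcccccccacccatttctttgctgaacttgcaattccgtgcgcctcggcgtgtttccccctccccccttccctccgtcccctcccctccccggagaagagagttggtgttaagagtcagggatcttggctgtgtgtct
ID1, under a peak in both lists, chr20:31605039-31605288, plus strand: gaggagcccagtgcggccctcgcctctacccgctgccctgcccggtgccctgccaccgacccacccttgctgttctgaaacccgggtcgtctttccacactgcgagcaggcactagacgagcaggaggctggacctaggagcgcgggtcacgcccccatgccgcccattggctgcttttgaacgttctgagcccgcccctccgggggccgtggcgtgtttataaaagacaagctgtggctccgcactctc
ID3, under a peak in both lists, chr1:23559502-23559751, minus strand: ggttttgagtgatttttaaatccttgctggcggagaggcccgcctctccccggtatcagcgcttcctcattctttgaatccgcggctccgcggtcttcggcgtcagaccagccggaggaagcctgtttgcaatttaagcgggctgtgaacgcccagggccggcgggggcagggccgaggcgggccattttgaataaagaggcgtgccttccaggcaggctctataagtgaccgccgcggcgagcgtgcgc
ID2, with a peak nearby but not on the start in both lists, chr2:8681806-8682055, plus strand: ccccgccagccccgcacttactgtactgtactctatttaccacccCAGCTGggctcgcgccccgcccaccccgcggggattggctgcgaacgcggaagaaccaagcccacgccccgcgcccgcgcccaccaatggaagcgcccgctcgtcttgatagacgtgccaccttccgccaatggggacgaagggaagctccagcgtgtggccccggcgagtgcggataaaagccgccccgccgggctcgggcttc
ID4, with no peak near the start in either list, chr6:19837120-19837369, plus strand: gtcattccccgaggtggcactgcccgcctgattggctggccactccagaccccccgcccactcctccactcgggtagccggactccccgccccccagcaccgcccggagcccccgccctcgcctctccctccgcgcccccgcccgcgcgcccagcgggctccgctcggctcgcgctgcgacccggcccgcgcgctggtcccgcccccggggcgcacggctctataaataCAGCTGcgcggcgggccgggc

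The 7 genes differed mainly through TCF4. Control-only peaks numbered 4 of 41 (9.76%, exact 95% binomial interval 2.72 to 23.1), and knockout-only peaks 22 of 68 (32.4%, 21.5 to 44.8). These intervals cover counting error only and treat neighbouring peaks as independent. The knockout one includes the TCF4 peaks that led to the choice, so neither is a test against the background. Over the whole lists, 18.0% of control peaks and 22.4% of knockout peaks were genotype-only. Among peaks in the same kind of window around any protein-coding gene, the shares were 17.4% and 20.5%. TCF4, selected for these peaks, supplied 11 of the 22 knockout-only ones. The other 6 genes had 11 knockout-only peaks of 57 (19.3%), close to the background, and all 4 control-only peaks.

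**Figure D1:**
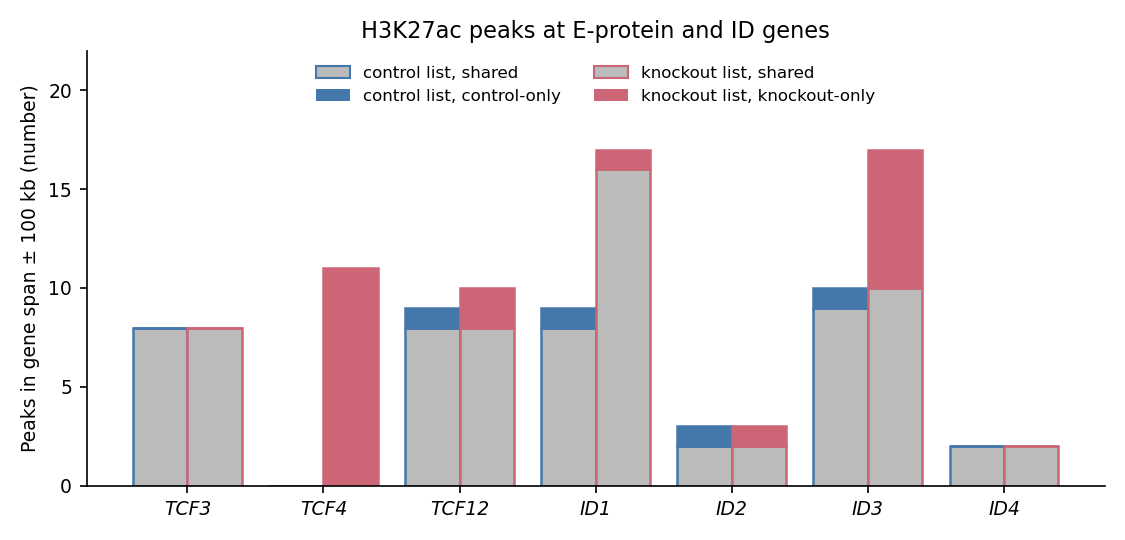
Number of H3K27ac peaks in the gene span plus 100 kb either side for each gene, with the control list on the left of each pair and the knockout list on the right; grey is shared and colour is genotype-only. TCF4 has 0 control and 11 knockout peaks, and ID3 has 7 knockout-only peaks of 17, while TCF3 and ID4 have shared peaks alone.

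TCF4, on the minus strand of chromosome 18 (55222185 to 55635957, a span of 414 kb), had no control peak at all and 11 knockout peaks, so every one was knockout-only. Together they covered 35.1 kb. The widest, chr18:55499565-55513973 with 14.4 kb and a pileup of 38.8, ranked 3 by width among the 9526 knockout-only peaks of the whole list. It was the single one of the 11 with a pileup above the knockout list's median. The next in width were chr18:55397876-55406395 (8.52 kb, pileup 21.5) and chr18:55419058-55422668 (3.61 kb, pileup 26.7). The TCF4 peaks were therefore broad in places, with pileups mostly below the list's median. Their median pileup was 18.4, against 16.1 for all knockout-only peaks. Their fold enrichment over input, a second measure of height, ran from 2.62 to 10.4. Its median was 5.35 over the whole knockout list and 3.15 over all knockout-only peaks.

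Towards the 3′ end of TCF4 lay 4 further peaks. The 2 nearest that end were chr18:55234244-55235084 (0.841 kb, pileup 18.4) and chr18:55251039-55252806 (1.77 kb, pileup 18.0). Closer to the middle were chr18:55321936-55323620 (1.69 kb, pileup 11.3) and chr18:55339324-55339637 (0.314 kb, pileup 9.69). On the 3′ side of the widest peak were chr18:55477270-55478511 (1.24 kb, pileup 20.5), within the antisense gene TCF4-AS1, and chr18:55489134-55489613 (0.480 kb, pileup 10.1). The weakest, chr18:55634934-55635495 (0.562 kb), had a pileup of 8, equal to the lowest of the whole knockout list, and lay 0.462 kb from the first start of TCF4. RefSeq places the ribosomal protein pseudogene RPL21P126 over that start, and how uniquely reads map there was not tested. The one peak outside the gene, chr18:55705997-55707686 (1.69 kb, pileup 21.5), lay 70.0 kb upstream, within the non-coding gene LOC105372130.

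Internal starts of TCF4 rather than the first ones lay under these peaks. RefSeq listed 10 starts, and 4 of them were covered by a knockout peak: those at 125, 214, 232 and 234 kb from the first start, the last pair under the same 8.52 kb peak. Counting peaks within 1 kb raised this to 6 of 10, and no start had a control peak within that distance. The closest control peak to any start was 352 kb away. The 3 starts at 46.1, 47.3 and 47.8 kb had no peak of either list within 45 kb. Before the 4 covered starts the 250 bases had a GC content of 36.0 to 48.0%, and the ratio of observed to expected CpG was at most 0.348. Before the start at 47.8 kb, printed above, GC content was 62.0%, and the median over 34961 RefSeq starts was 58.4%. The 4 covered starts were thus poor in CpG (the median ratio over all RefSeq starts was 0.558). Neither a low GC content nor a low CpG ratio was particular to them. The uncovered starts at 0, 47.3 and 315 kb had a GC content of 40.8, 39.2 and 34.4%. Their CpG ratios were 0.210, 0.833 and 0.276. The pair of TCF4 starts richest in GC (62.0 and 68.0%) carried no peak. The start with the highest CpG ratio of the 10 (1.05, GC content 52.4%) went the other way: it lay 314 kb into the gene and 95 bp from a knockout-only peak (chr18:55321936-55323620).

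**Figure D2:**
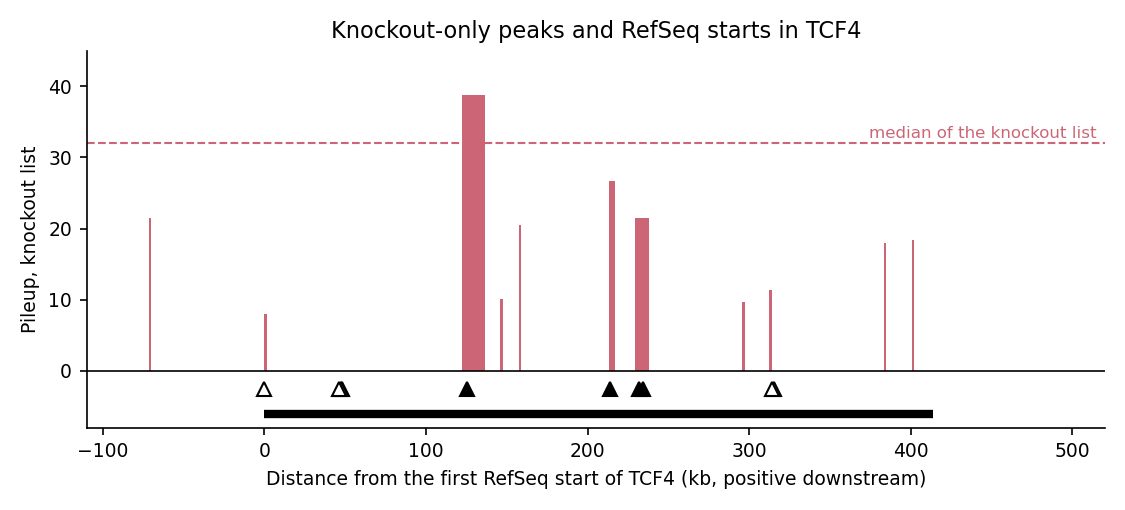
Pileup of the 11 knockout peaks of TCF4 (bars, drawn at their width but at least 1.5 kb wide) against distance from the first RefSeq start in kb; triangles are RefSeq starts, filled where a peak covers the start, and the black bar is the gene. The 4 filled starts lie between 125 and 234 kb, and 1 bar passes the dashed median of the knockout list (32.0).

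The absence of control peaks reached well beyond TCF4. Between 2 neighbouring control peaks, from 54968851 to 56636010 on chromosome 18, lay 1.67 Mb without any control peak, and this stretch held 24 knockout-only peaks covering 50.6 kb. Of these, 10 touched TCF4, 12 lay more than 100 kb from its start on the upstream side, and 1 lay more than 100 kb from its 3′ end. Their pileup ran from 8 to 38.8 with a median of 15.8, and 1 of the 24 was above the list's median. By fold enrichment they stood higher among knockout-only peaks: their median was 4.75, against 3.15 for all knockout-only peaks and 5.35 for the whole list. The stretch held TCF4, the lower-coordinate part of TXNL1, which encodes a thioredoxin-like protein, and 16 lncRNA genes.

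On either side of that stretch most peaks were shared. In the 1000 kb on the lower-coordinate side all 13 control peaks were shared, as were 13 of 17 knockout peaks. On the other side all 10 control peaks and 10 of 12 knockout peaks were shared. Control pileups there ran from 11.3 to 44.3 and from 7.05 to 35.2. Knockout pileups in the flanks had medians of 31.1 and 17.3, against the 15.8 inside. Median fold enrichment of knockout peaks was 8.98 and 4.94 in the flanks, against 4.75 for the knockout-only peaks inside.

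**Figure D3:**
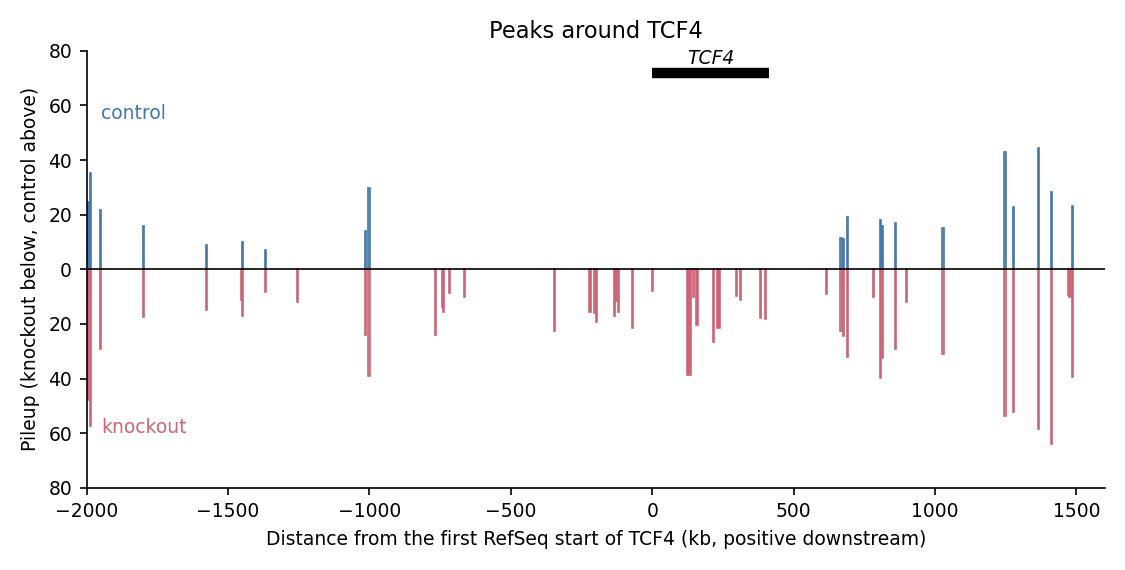
Pileup of all control peaks (above 0) and knockout peaks (below 0) around TCF4 against distance from its first start in kb, with bars drawn at least 4 kb wide and the gene as a black bar. Control peaks stop about 667 kb downstream and 1000 kb upstream of the start, whereas knockout peaks continue through the gap, none of them above a pileup of 38.8.

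Across the genome this was the gap between control peaks that held the most knockout-only peaks. Of 39774 gaps between neighbouring control peaks, 273 were of 1 Mb or more, and the next in number of knockout-only peaks held 19 (chromosome 18, 70432107 to 74147656) and 15 (chromosome 12, 127083832 to 128782648). The reverse case, a gap between knockout peaks holding control-only peaks, reached 11 at most. By gene, 220 of 19974 protein-coding genes (1.10%) had a knockout peak but no control peak in the span plus 100 kb. The reverse held for 247 genes (1.24%). TCF4 had the most knockout-only peaks of the 220, and the next highest number was 6, for LDB2, CDH8, CXCL13 and LOC124903206. At least 11 knockout-only peaks were found at 23 genes (0.115%), of which 19 spanned at least 300 kb, and TCF4 was the only one of the 23 with no control peak. Genes of at least 300 kb (771) had a median of 1 knockout-only peak. TCF4 was singled out from these same lists, so its rank is a description. A peak list has no value outside peaks: neither a sub-threshold H3K27ac signal nor the input coverage of this stretch in control cells was analysed here.

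**Figure D4:**
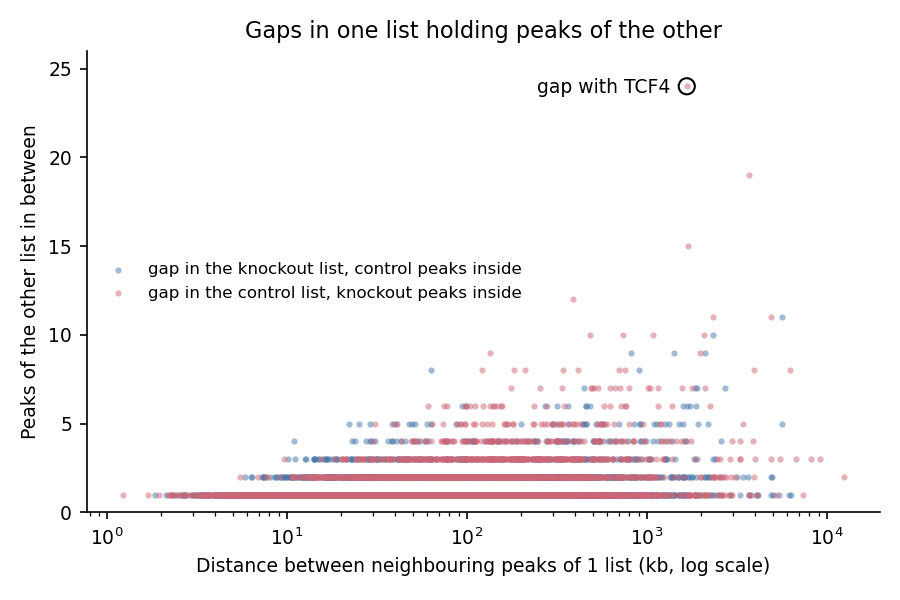
Number of peaks of one list lying between neighbouring peaks of the other, against the distance between those neighbours in kb on a log scale; each point is 1 gap holding at least 1 peak. The gap with TCF4 (circled; 1667 kb, 24 knockout-only peaks) lies above every other point, the next being at 19 peaks.

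TCF12, which encodes the E-protein HEB and spans 373 kb on chromosome 15, was acetylated at its start in both genotypes. The start peak was chr15:56917582-56920340 in control (2.76 kb, pileup 92.7, above 97.0% of its list) and chr15:56916923-56920367 in knockout (3.45 kb, pileup 123, above 93.2%). It covered the same 4 of the 5 RefSeq starts in both lists, and the start 301 kb into the gene had no peak within 87.0 kb. In all, 8 of 9 control peaks and 8 of 10 knockout peaks were shared. TCF12 was the closest protein-coding gene for 5 of the 9 and 6 of the 10, and CGNL1 for the rest. The knockout-only peaks were chr15:57025364-57026219 inside the gene (0.856 kb, pileup 12.6) and chr15:56907358-56907740 (0.383 kb, pileup 13.3). The control-only peak, chr15:57306464-57306960 beyond the 3′ end, was small too, with 0.497 kb and a pileup of 6.50. The body of TCF12 beyond its start thus held 1 peak in knockout cells and none in control cells. TCF4, a gene of similar length, likewise had no control peak in its span but had 10 knockout peaks there.

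TCF3, encoding the E2A proteins E12 and E47 on chromosome 19, had 8 peaks in each list, and all 16 were shared. Its start peak was chr19:1649817-1653773 in control (3.96 kb, pileup 59.2, above 86.8% of its list) and chr19:1650679-1653834 in knockout (3.16 kb, pileup 158, above 97.3%). A smaller peak 19.6 kb upstream in control (0.278 kb, pileup 13.8) had a partner of 0.563 kb and pileup 52.1 in knockout. The other 6 peaks of each list lay closer to neighbouring genes than to TCF3. The highest of them was at ONECUT3 in control (chr19:1745487-1749058, pileup 75.3) and at ADAMTSL5 in knockout (chr19:1512155-1514154, pileup 184). The widest was at MBD3 in control (chr19:1586660-1593759, 7.10 kb), where the knockout peak was 2.71 kb wide.

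ID1, on chromosome 20, lay in a stretch dense in shared peaks. In control cells 1 peak of 10.3 kb, chr20:31602641-31612919 with a pileup of 57.7, covered the gene. In knockout cells 3 peaks overlapped it: chr20:31602246-31607278 over the gene (5.03 kb, pileup 148), then 1 of 0.819 kb (pileup 53.6) and 1 of 3.25 kb (pileup 56.0). A second shared peak lay upstream, 10.7 kb from the start in control (pileup 92.6) and 9.99 kb in knockout (pileup 96.9). The knockout list had 17 peaks against 9 in control, but 16 of the 17 were shared, since several knockout peaks often fell in 1 control peak. The largest such case was a control peak of 63.1 kb over BCL2L1, an anti-apoptotic gene (chr20:31661211-31724325, pileup 107), which met 6 knockout peaks, the widest being 32.7 kb (chr20:31691972-31724627, pileup 192). The covered length was therefore smaller in knockout (85.0 kb, of which 94.3% lay under control peaks) than in control (107 kb, 74.9% under knockout peaks). Each list had 1 peak of its own, at chr20:31522331-31523241 in control (0.911 kb, pileup 11.5) and chr20:31587522-31588124 in knockout (0.603 kb, pileup 27.8). The control one lay at the neighbouring gene HM13. ID1 was the closest protein-coding gene for 2 of the 9 control and 5 of the 17 knockout peaks. The others were closest to HM13 or BCL2L1, so the counts and covered lengths describe the window more than ID1.

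ID3, on chromosome 1, had the most knockout-only peaks after TCF4, 7 of 17, but this count was sensitive to the choice of peaks. It was 4 with −log10 q of 5 or more, 4 with the 30000 peaks of highest −log10 p, and 3 with peaks of at least 500 bp, where control-only peaks were also 3. The control peak over the gene, chr1:23554204-23560090 (5.89 kb, pileup 31.1), met 2 knockout peaks: chr1:23557994-23560234 over the start (2.24 kb, pileup 46.2) and chr1:23554137-23555421 beyond the 3′ end (1.29 kb, pileup 92.1). Of 10 control peaks 9 were shared. Of 17 knockout peaks 10 were shared and 7 were knockout-only (41.2%, exact 95% interval 18.4 to 67.1). The background share of 20.5% lay inside that interval, which treats neighbouring peaks as independent and is no test. ID3 was the closest protein-coding gene for 6 of the 17. The 3 knockout-only peaks closer to ID3 than to any other protein-coding gene lay upstream, at 2.57 kb (chr1:23562071-23562350, pileup 18.9), 8.60 kb (chr1:23568104-23568595, pileup 15.1) and 25.8 kb (chr1:23585347-23586313, pileup 31.0) from the start. All 3 had a pileup below the knockout list's median.

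The other knockout-only peaks in the ID3 window were nearer to E2F2, a cell cycle transcription factor gene, or to ASAP3, a regulator of small GTPases. At E2F2 they were chr1:23525079-23525502 (pileup 9.13) and chr1:23539636-23539878 (pileup 12.1). At ASAP3 they were chr1:23460110-23461478 (pileup 12.6) and chr1:23455088-23457936, which at a pileup of 81.0 was the highest genotype-only peak of all 7 genes. It lay 99.99 kb from ID3, just inside the window, and the next peak beyond the limit was another knockout-only peak at 106 kb (pileup 12.2). The control-only peak of the ID3 window, chr1:23475103-23475612 (0.510 kb, pileup 9.87), was also at ASAP3 and lay 1.17 kb from a knockout peak.

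ID2 and ID4 had few peaks, and neither start lay under one. At ID2, on chromosome 2, both lists had a peak just upstream: chr2:8678927-8679816 in control (0.890 kb, pileup 32.1) and chr2:8678940-8680470 in knockout (1.53 kb, pileup 32.6). A smaller pair lay closer to the start, 0.407 kb away in control (0.345 kb wide, pileup 11.3) and 0.368 kb away in knockout (0.276 kb wide, pileup 31.8). Their overlap of 237 bp was the smallest of any shared pair among the 7 genes. The single control-only peak, chr2:8633384-8634287 (0.904 kb, pileup 11.4), and the single knockout-only peak, chr2:8662306-8662543 (0.238 kb, pileup 9.88), were both far from a peak of the other list, by 28.0 and 16.4 kb. At ID4, on chromosome 6, 2 shared peaks lay upstream and nothing closer. The nearer one, 32.1 kb from the start in control and 31.9 kb in knockout, had pileups of 24.4 and 51.0. The farther one, at 78.2 and 77.2 kb, had pileups of 17.2 and 56.2.

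**Figure D5:**
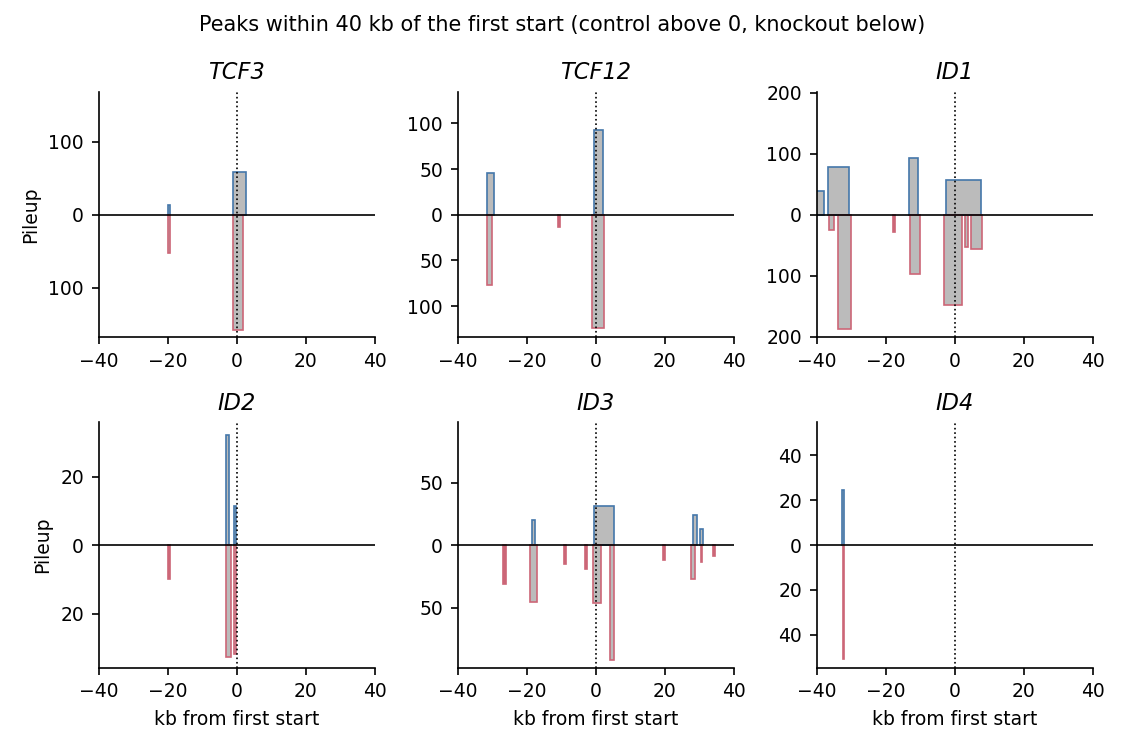
Pileup of control peaks (above 0) and knockout peaks (below 0) within 40 kb of the first RefSeq start (dotted line) for the 6 genes other than TCF4, against distance in kb with positive values downstream; bars are at least 0.5 kb wide, grey fill is shared and colour fill is genotype-only, and each panel has its own scale. TCF3, TCF12, ID1 and ID3 have shared peaks on the start, ID2 has 2 just before it, and ID4 has none nearer than 31.9 kb.

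Counted by starts, 5 of the 7 genes had a peak within 1 kb of a RefSeq start in both lists (TCF3, TCF12, ID1, ID2 and ID3). TCF4 had one in the knockout list alone, and ID4 in neither. Of 15812 protein-coding genes with a listed start, 63.7% had such a peak in both lists, 1.29% in the knockout list alone and 1.49% in the control list alone. The members' starts were searched for E-boxes. The 250 bases held no CANNTG at TCF3, ID1 and ID3, and 1 each at ID2 and ID4, which in both genes was CAGCTG. At TCF4, 5 of the 10 starts had 1 E-box and the others none, and at TCF12 it was 2 of 5. Of all 34961 RefSeq starts, 61.8% had at least 1 CANNTG and 14.0% had CAGCTG. The variant CAGGTG, found before 17.5% of all starts on either strand, was before none of the members' starts. Of the SMAD motifs, GGCGCC (16.4% of all starts) was found before 1 TCF12 start. CAGACA on either strand (13.6% of all starts) was found before 3 TCF4 starts and 1 TCF12 start. These are matches of letters and were not tested as binding sites.

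Other genes of the network, from a list of 43 written from general knowledge with earlier results of these data known, had 26 control-only peaks of 201 (12.9%) and 39 knockout-only peaks of 213 (18.3%). The shares in the same kind of window around any protein-coding gene were 17.4% and 20.5%, and no difference from them was tested. By role, the knockout-only share was 16.7% for partners, 17.2% for repressors and 22.6% for targets. Of the 27 bHLH partners of E-proteins, 3 had a peak within 1 kb of a start in both lists (LYL1, NEUROG2 and BHLHA15), 2 in the knockout list alone (ATOH1, a neural and secretory lineage factor, and TCF21, a mesenchymal factor) and 22 in neither. Among the 8 HES, HEY and BHLHE repressor genes, 7 had one in both lists. Of 8 genes known as E-protein or ID targets it was 3, namely CDKN1A, VIM and THBS1, and 5 had one in neither list. The last group includes CDKN2A and CDKN2B, cell cycle inhibitor genes with no peak of either list in the window, and CDH1, the E-cadherin gene. DNA copy number was not analysed, so for genes without any peak an unmarked locus could not be told from an absent one.

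Genotype-only peaks were spread thinly over that list, with a median per gene of 0 in control and 1 in knockout. TCF21 had 4 knockout-only peaks of 10, and CDKN1A had 4 of 15 beside 3 control-only peaks of 14. MSC, a bHLH repressor gene, had 3 knockout-only peaks and no control peak. HEY1, a Notch target (3 of 8), BHLHE41, a clock-linked repressor (3 of 7), SNAI2, an E-cadherin repressor (3 of 5), and FGFR1, a growth factor receptor (3 of 11), followed. ATOH8 was the only gene with 3 control-only peaks (of 7) and no knockout-only one. None of the 43 came near the 11 of TCF4.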

How the data were processed

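H3K27ac chromatin immunoprecipitation was sequenced in 8 libraries (2 genotypes, input and immunoprecipitate, 2 replicates each). The submitters' processing notes name Bowtie2 2.3.5.1, MACS2 2.2.6 and the hg38 build. Each list compares immunoprecipitate with input of 1 genotype, as its name says. Options, library depth and any pooling of replicates are not given in the sources used here. For each peak the authors deposited, per the file headers, its position, width, pileup (a coverage signal), −log10 p-value, fold enrichment (a ratio) and −log10 q-value.

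Peaks off the autosomes and X (6 control, 8 knockout) were left out. Overlap classes were computed in Python 3.11.15 with pandas 2.3.3, tested on simulated peaks, and had the same partner counts as bedtools 2.31.1. Intervals are exact binomial (Clopper-Pearson, scipy 1.17.1) at 95%. Gene spans and starts are RefSeq on GRCh38.p14, and all 7 genes matched by symbol. Members and lists were chosen with earlier results of these data known. Exons are not marked in the tables used, so positions are relative to spans and starts. All 7 genes and each of their genotype-only peaks are named. Of their shared peaks, those over the start, the highest and the widest were eligible, and other genes were named from 3 genotype-only peaks in 1 list.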

Additional observations from a re-analysis of the deposited data

How the results depend on the processing

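The 11 knockout-only peaks of TCF4 became 7 when only peaks with −log10 q of 5 or more were kept, and also 7 with the 30000 peaks of highest −log10 p in each list. Under all 9 alternatives TCF4 had 0 control peaks, control-only or shared, but no alternative could have given another count. The closest control peak lay 253 kb from the gene, beyond even the 200 kb window, and the other settings only drop or relabel peaks. For the 7 genes together, the 4 control-only peaks became 1 at a −log10 q of at least 5, 2 where the closest protein-coding gene had to be the member, 0 in the gene span alone, 2 with a window of 50 kb and 9 with 200 kb. The 22 knockout-only peaks became 11 in the gene span alone, 10 of them at TCF4, and stayed between 16 and 31 under the other alternatives. In the list of 43 genes, control-only peaks fell from 26 to 17 at a −log10 q of at least 5, and knockout-only peaks from 39 to 21 with 30000 peaks per list. A given q limit keeps different shares of each list, since control peaks had a median −log10 q of 10.6 and knockout peaks one of 15.0. No replicate could be left out and no depth is known, since each genotype has 1 list. No paired analysis was possible because each genotype has 1 peak list, and whether it rests on 1 replicate or both is not given. At ID3 the 7 knockout-only peaks became 4 at that q limit, 4 with 30000 peaks, 3 with peaks of at least 500 bp, 3 where ID3 had to be the closest gene and 0 in the gene span alone. TCF3 went from 0 knockout-only peaks to 2 of 8 at that q limit, with 30000 peaks and with peaks of at least 500 bp. Its control peaks fell from 8 to 6 in each case. ID4 went from 0 to 1 of 2 with peaks of at least 500 bp.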

Other observations

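Other long stretches without control peaks also held runs of knockout-only peaks. The second in number, 3.72 Mb on chromosome 18 (70432107 to 74147656), held 19 and included NETO1, a neuronal receptor-associated gene, CBLN2, a synaptic organiser gene, and FBXO15. The third, 1.70 Mb on chromosome 12, held 15 and included TMEM132C. The densest of the 10 highest was a stretch of 0.391 Mb on chromosome 14 (83164957 to 83555786), with 12 knockout-only peaks and no protein-coding gene. The stretch with TCF4 had 14.4 knockout-only peaks per Mb and this one 30.7. These stretches were found after the values at TCF4 had been seen.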
